A study of Mus musculus with 15 samples.

Results

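The nuclear genes that encode subunits of respiratory complexes II, III, IV and V, with cytochrome c, were described across quadriceps muscle of dystrophic mice given prednisone daily, prednisone weekly or solvent. Members were the rows of the deposited gene table whose symbol was Sdha, Sdhb, Sdhc, Sdhd, Cyc1 or Cycs, or began with Uqcr, Atp5, Cox4, Cox5, Cox6, Cox7 or Cox8. The rule used names and no measured value, and it found 45 of 14272 named genes. They comprised 4 genes of complex II, 9 of complex III, 1 gene for cytochrome c, 14 of complex IV and 17 of complex V. Symbols of pseudogenes were to be left out, and 0 occurred. All 45 genes passed the filter on low values, as did 14059 of the named genes, and the lowest member value in any library rested on 6 reads.

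RNA of quadriceps from male DBA/2J-mdx mice was sequenced in 15 libraries, 5 per group. DBA/2J-mdx mice lack dystrophin, on a strain background with a severe dystrophic phenotype, and every group carried the mutation, so no healthy muscle entered the comparison. Prednisone is a synthetic glucocorticoid. Daily animals received it at 1 mg/kg by intraperitoneal injection 7 times a week. Weekly animals received 1 mg/kg 1 time a week and the solvent DMSO on the other 6 occasions. Vehicle animals received DMSO 7 times a week. The protocol text gives an age of 6 months and the sample descriptions give about 7 months. For the length of treatment and the hour of dissection the sources used here give nothing. Nor do they state that the 5 libraries of each group were separate animals, so the spread behind each p-value is that of these samples and may in part be technical.

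Depth lay between 2780768 reads in weekly 4 and 11052552 reads in weekly 2. The deposited values are CPM, the reads of a gene scaled to the total of its library. The summed CPM of 8 skeletal muscle markers, which include skeletal actin, muscle creatine kinase and titin, was between 133489 and 259049 in every library. Vehicle libraries resembled each other closely, with a chi-square per degree of freedom of 1.51 to 2.05 between pairs, where 1 is counting error. The same measure reached 231 between daily pairs and 95.2 between weekly pairs. A pair of libraries stood apart. In daily 3 the median deviation of all genes from the vehicle mean was -0.53 on the log2 scale. In that library Gm26924 held 20.6% and Lars2 7.80% of the summed CPM. The other libraries had 0.0431% to 3.03% in Gm26924 and 0.0498% to 1.62% in Lars2. In weekly 4, the shallowest library, the deviation of genes from the vehicle mean rose with the GC content of their transcripts (Spearman's rho 0.49 across 9560 genes, which are not independent replicates). Weekly 4 also had 0.570% of its summed CPM in mt-Rnr2, where the other libraries had 6.23% to 14.4%. Counts of calls are given with and without weekly 4 and daily 3, as are the genes whose calls turned on weekly 4.

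The respiratory chain passes electrons from fuel oxidation to oxygen in the inner mitochondrial membrane. Complex II feeds electrons from succinate into the ubiquinone pool, complex III hands them to cytochrome c, and complex IV, cytochrome c oxidase, passes them to oxygen. Complexes III and IV pump protons, and complex V, the ATP synthase, uses the resulting gradient to make ATP. Complex II is encoded wholly in the nucleus, whereas complexes III, IV and V combine nuclear subunits with a few encoded in mitochondrial DNA. Several small subunits of complex IV exist as a ubiquitous isoform and an isoform of heart and skeletal muscle.

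Promoters are shown for 5 genes of the isoform pairs of complex IV, because the results below turn on the members of those pairs that muscle shares with other tissues. Each line gives the 300 bases from 250 before to 50 after the annotated start, 5′ to 3′ on the gene's strand, from RefSeq on GRCm38.p6. Capitals mark matches on either strand to GCGC, any 2 bases and GCGC again, a core of the site of nuclear respiratory factor 1 (NRF1), or to CCGGAAG, a core of ETS family sites such as that of GABP. The windows are chr5:115348909-115349208 (minus strand) for Cox6a1, chr19:7217567-7217866 (minus strand) for Cox8a, chr9:79759804-79760103 (minus strand) for Cox7a2, chr7:140900397-140900696 (minus strand) for Cox8b and chr7:30183921-30184220 (plus strand) for Cox7a1.
Cox6a1: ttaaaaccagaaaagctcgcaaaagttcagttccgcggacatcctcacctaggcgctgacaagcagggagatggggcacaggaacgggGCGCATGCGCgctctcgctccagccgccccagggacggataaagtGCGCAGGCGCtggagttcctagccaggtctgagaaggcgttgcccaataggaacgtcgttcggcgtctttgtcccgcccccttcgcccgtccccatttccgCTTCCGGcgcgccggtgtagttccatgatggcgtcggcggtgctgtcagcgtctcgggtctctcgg
Cox8a: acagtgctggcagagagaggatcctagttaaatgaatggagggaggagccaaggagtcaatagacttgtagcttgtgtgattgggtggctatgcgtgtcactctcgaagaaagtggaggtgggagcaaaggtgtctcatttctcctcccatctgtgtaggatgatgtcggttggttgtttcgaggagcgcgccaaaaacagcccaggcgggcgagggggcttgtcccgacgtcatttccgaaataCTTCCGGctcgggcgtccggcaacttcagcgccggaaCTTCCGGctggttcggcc
Cox7a2: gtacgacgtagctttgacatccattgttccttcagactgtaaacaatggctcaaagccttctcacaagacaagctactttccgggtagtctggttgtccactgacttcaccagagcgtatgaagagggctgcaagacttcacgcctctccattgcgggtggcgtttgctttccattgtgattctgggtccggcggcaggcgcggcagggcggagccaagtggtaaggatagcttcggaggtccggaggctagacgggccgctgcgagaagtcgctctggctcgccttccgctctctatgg
Cox8b: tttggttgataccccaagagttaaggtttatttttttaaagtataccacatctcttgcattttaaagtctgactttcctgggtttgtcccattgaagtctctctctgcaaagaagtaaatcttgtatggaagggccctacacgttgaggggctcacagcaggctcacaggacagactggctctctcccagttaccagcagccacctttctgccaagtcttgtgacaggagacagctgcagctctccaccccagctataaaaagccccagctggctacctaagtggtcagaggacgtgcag
Cox7a1: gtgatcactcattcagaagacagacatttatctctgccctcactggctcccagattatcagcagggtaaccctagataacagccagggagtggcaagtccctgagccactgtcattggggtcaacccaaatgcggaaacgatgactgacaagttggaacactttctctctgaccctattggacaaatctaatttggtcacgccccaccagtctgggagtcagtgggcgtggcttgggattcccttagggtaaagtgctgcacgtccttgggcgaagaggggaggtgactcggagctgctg

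The window of Cox6a1, a ubiquitous isoform, held 2 NRF1 matches, 1 ETS match and 32 CpG dinucleotides. That of Cox8a, also ubiquitous, held 2 ETS matches and 19 CpG. No letters of either motif stood in the window of the third ubiquitous isoform, Cox7a2, which held 20 CpG. The windows of the muscle isoforms Cox8b and Cox7a1 held neither motif, and 2 and 7 CpG. No window was matched for Cox6a2, the muscle isoform of subunit 6a. The median was 19.0 CpG over the members' windows and 7.0 CpG over the windows of all genes. RefSeq windows were matched for 33 of the 45 genes, in 36 windows. The NRF1 letters occurred in 27.8% of those windows and in 6.23% of 32851 windows of all genes, and the ETS letters in 33.3% and 8.86%. The letters CAAGGTCA, a site of oestrogen-related receptors, occurred in 8.3% of the members' windows and 1.56% of all. Among the members with NRF1 letters were Sdha, Sdhd, Uqcrc1, Atp5g3, Atp5h and Atp5o. Matches are letters in a window, not measured binding.

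With weekly prednisone, 10 of the 45 genes rose against vehicle and 0 fell, at an adjusted p under 0.05 (limma with Benjamini-Hochberg adjustment over all genes tested). That is 22.2% of the members, where 6.99% of all genes tested rose and 8.06% changed in either direction. The risers were Sdha and Sdhc of complex II, Uqcrc1 and Cyc1 of complex III, Cox4i1, Cox6a1 and Cox8a of complex IV, and Atp5a1, Atp5b and Atp5h of complex V. The median of the members lay 0.10 above the median of all genes on the log2 scale, with 31 members above it and 14 below. On the deposited scale the median of all genes was itself shifted by 0.17. With TMM scaling, which puts that shift at 0.01, 8 members rose, against 5.73% of all genes, and Sdhc and Atp5h were no longer called.

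The count depended on single libraries. Shares over all genes are not given for the fits without a single library, so those counts do not set the members apart from other genes. It was 4 when any of the 5 vehicle libraries was left out, 6 without weekly 1, 5 without weekly 3, 6 without weekly 5, 16 without weekly 4 and 17 without daily 3, which shares in the estimate of the spread. Without weekly 4 and daily 3 together 31 members rose, where 20.3% of all genes rose, and with TMM scaling as well 18 did, where 9.15% of all genes rose. Uqcr11, Uqcrc2, Uqcrfs1, Cycs, Cox5b and Cox6b1 were the members gained without weekly 4. Those gained without daily 3 were Sdhb, Uqcrc2, Uqcrfs1, Cycs, Cox5b, Cox6b1 and Atp5d. Uqcrc1, Cox4i1, Cox6a1 and Cox8a were called in all 27 settings run.

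With daily prednisone no member was called against vehicle, where 2.13% of all genes fell and 3.89% changed in either direction (limma with Benjamini-Hochberg adjustment). At an unadjusted p under 0.05 there were 9 members, and edgeR and DESeq2 on recovered reads called 0. Values nonetheless lay on one side, with 42 of 45 members below the median of all genes and a median of -0.19 relative to it. All 14 genes of complex IV were below it. Leaving out weekly 4 gave 4 lower members, Cox6a2, Cox7a2, Cox8b and Atp5l, a setting for which no share over all genes is given. Without weekly 4 and daily 3 there were 8, those 4 with Atp5c1, Atp5e, Atp5j and Atp5j2, where 6.36% of all genes fell, and 15 with TMM scaling as well, where 9.92% fell. Both comparisons use the same 5 vehicle libraries and are not independent.

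Between the regimens, 24 members were lower in daily than in weekly libraries and 0 higher, where 8.24% of all genes were lower (limma with Benjamini-Hochberg adjustment). The median of the members was -0.27 relative to that of all genes, which was shifted by -0.24 on the deposited scale. With TMM scaling 8 members were lower (Sdha, Sdhb, Uqcrc1, Cyc1, Cox4i1, Cox6a1, Cox8a and Atp5b), where 2.65% of all genes were, and the other 16 calls were lost. On recovered reads edgeR and DESeq2 gave 11 and 13. Shares over all genes are not given for these fits or for those without a single library. The count was 13 without daily 5, 14 without weekly 5 and 42 without weekly 4. The 18 members gained without weekly 4 were Sdhd, Uqcrb, Uqcrh, Uqcrq, Cycs, Cox5a, Cox6a2, Cox6c, Cox7a1, Cox7a2l, Cox7b, Cox7c, Cox8b, Atp5c1, Atp5g1, Atp5g2, Atp5g3 and Atp5l, and only Atp5j, Atp5s and Atp5sl were then not called. Without weekly 4 and daily 3 it was 42, where 11.7% of all genes were lower, and 32 with TMM scaling as well, where 6.4% were. Sdhb, Cox4i1, Cox6a1, Cox8a and Atp5b were called in all 27 settings. In bulk muscle, fewer cells with abundant mitochondria and less RNA per cell cannot be told apart.

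**Figure D1:**
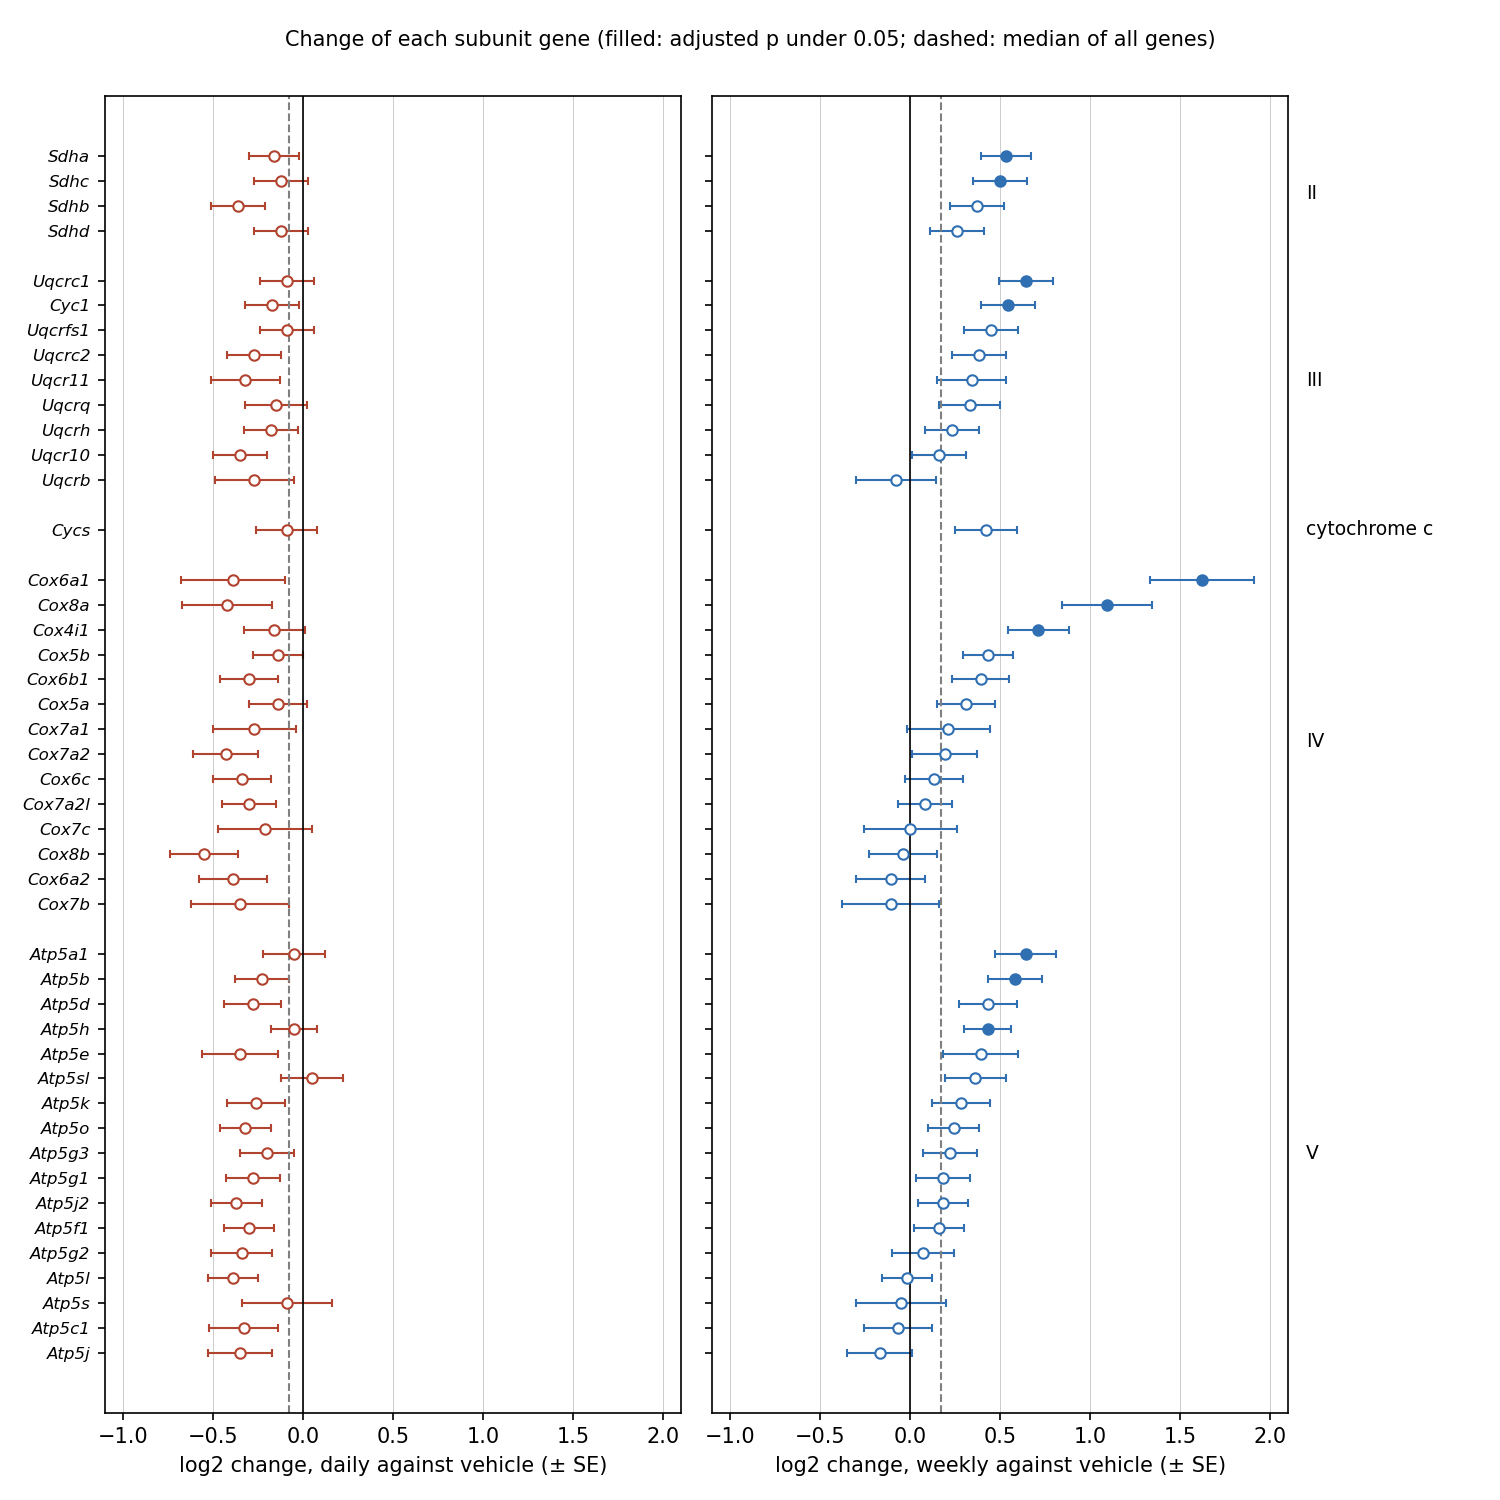
Log2 change of each of the 45 genes against vehicle (± SE of the limma fit), daily on the left and weekly on the right, grouped by complex. Filled points have an adjusted p under 0.05 and the dashed line is the median of all genes tested. The 10 filled points all lie in the weekly panel, and 42 of the 45 daily points lie left of the dashed line.

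Counted as libraries that do not overlap, 12 members had all 5 weekly libraries above all 5 vehicle libraries, where 11.8% of all genes did. All 5 daily libraries lay below all 5 vehicle libraries for 7 members, where 8.82% of all genes did, and below all 5 weekly libraries for 15 members, where 6.98% did. The 7 were Cox6c, Cox7a2, Cox7a2l and Cox8b of complex IV and Atp5c1, Atp5f1 and Atp5l of complex V.

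**Figure D2:**
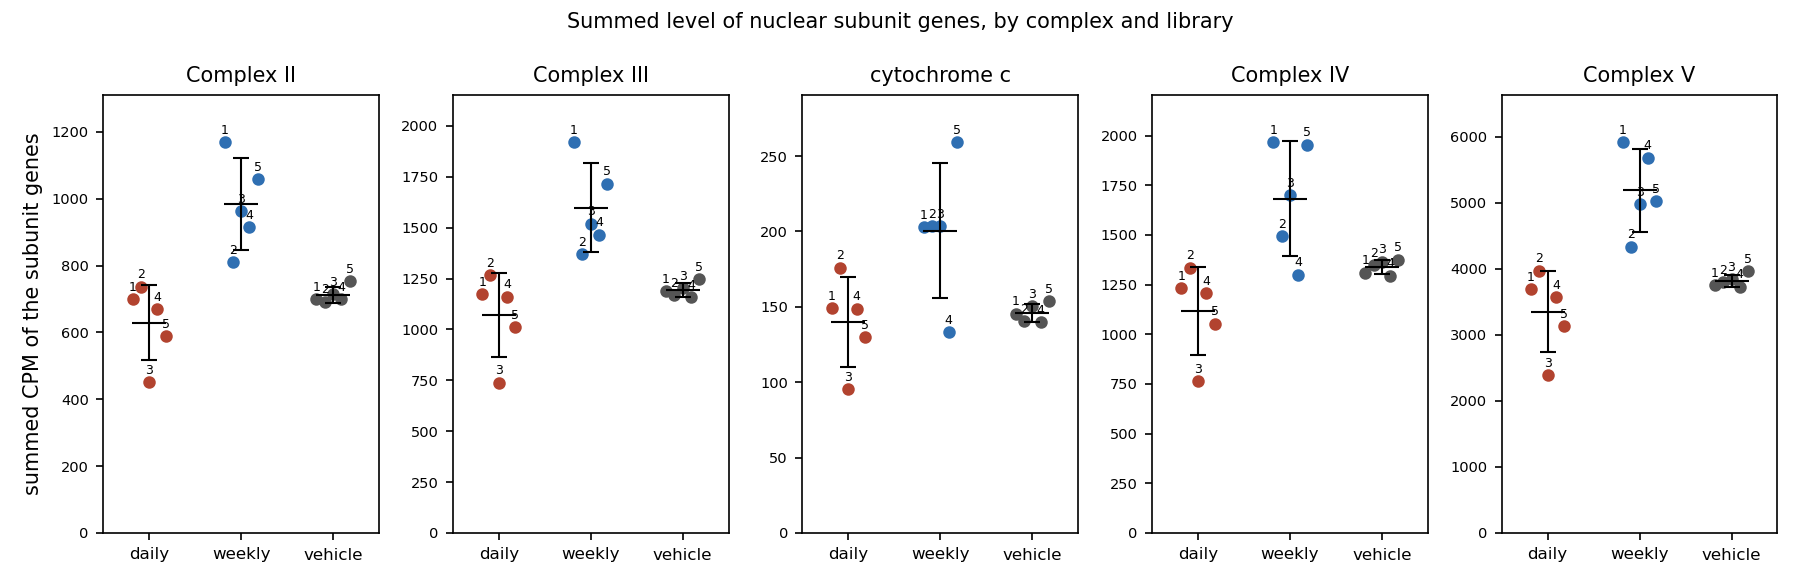
Summed CPM of the subunit genes of each complex in each library, with replicate numbers, the group mean and its SD (n = 5). Weekly sums lie above all vehicle sums for complexes II, III and V in all 5 libraries, while weekly 4 falls among or below the vehicle libraries for cytochrome c and complex IV and daily 3 is lowest in every panel.

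Complex II, succinate dehydrogenase, is the enzyme shared by the citric acid cycle and the respiratory chain. Relative to all genes, the median of its 4 genes was -0.06 with daily and 0.27 with weekly prednisone. Sdha (chr13:74322254-74350280, minus strand, GRCm38) encodes the flavoprotein that oxidises succinate. It measured 372, 384, 234, 349.5 and 302 CPM in daily libraries 1 to 5, 611, 440.2, 530.4, 462 and 579.7 CPM in weekly libraries 1 to 5, and 364, 337, 362, 359 and 382 CPM in vehicle libraries 1 to 5. All weekly libraries exceeded all vehicle libraries, and daily 3 was the lowest of all. The log2 change was -0.16 ± 0.14 (SE, limma adjusted p = 0.637) for daily and 0.53 ± 0.14 (SE, limma adjusted p = 0.027) for weekly against vehicle. Sdhc, a membrane anchor, measured 61.9, 67.8, 38.7, 63.2 and 58.9 CPM in daily libraries 1 to 5, 108, 75.2, 81.2, 92.4 and 87.8 CPM in weekly libraries 1 to 5, and 65.2, 65.9, 60.1, 56.0 and 63.9 CPM in vehicle libraries 1 to 5. Its weekly and vehicle libraries did not overlap, and weekly was at 0.50 ± 0.15 (SE, limma adjusted p = 0.0373), daily at -0.12 ± 0.15 (SE, limma adjusted p = 0.732). Both rises were lost when any 1 vehicle library, weekly 1, weekly 3 or weekly 5 was left out, with limma adjusted p up to 0.0756 for Sdha and up to 0.102 for Sdhc, which was lost without daily 5 also.

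Sdhb carries the iron-sulfur clusters of complex II. Its values were 152, 176, 99.9, 148 and 133 CPM in daily libraries 1 to 5, 273, 181, 227, 264 and 233 CPM in weekly libraries 1 to 5, and 168, 180.4, 182, 179 and 190.3 CPM in vehicle libraries 1 to 5. Every daily library lay below every weekly library, and weekly 2 stood inside the vehicle range. Daily was lower than weekly at -0.74 ± 0.15 (SE, limma adjusted p = 0.00406), and neither regimen was called against vehicle, at -0.36 ± 0.15 (SE, limma adjusted p = 0.199) for daily and 0.37 ± 0.15 (SE, limma adjusted p = 0.118) for weekly. Sdhd, the other membrane anchor, averaged 101 ± 14.2 CPM in the daily, 134 ± 33.5 CPM in the weekly and 109 ± 6.13 CPM in the vehicle libraries (SD, n = 5 each). Sdhd was called in no comparison with all libraries weighted equally, and in daily against weekly without weekly 4 (limma adjusted p = 0.0145). With library weights, a fit that lets libraries count unequally, Sdhd was higher in weekly than in vehicle and lower in daily than in weekly.

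Complex III, the cytochrome bc1 complex, is built on a pair of core proteins and the redox subunits. Relative to all genes, the median of its 9 members was -0.10 with daily and 0.17 with weekly prednisone. Uqcrc1 (chr9:108936633-108949623, plus strand), a core protein, measured 284, 305, 174, 272 and 226 CPM in daily libraries 1 to 5, 468, 319, 395, 492 and 394 CPM in weekly libraries 1 to 5, and 263, 258, 257, 257 and 279 CPM in vehicle libraries 1 to 5. The lowest weekly library exceeded the highest vehicle library, and the daily libraries lay on both sides of vehicle. Weekly rose by 0.64 ± 0.15 (SE, limma adjusted p = 0.0121) against vehicle, and daily was lower than weekly at -0.72 ± 0.15 (SE, limma adjusted p = 0.00618). Daily against vehicle gave -0.09 ± 0.15 (SE, limma adjusted p = 0.828). Cyc1 (chr15:76343523-76346260, plus strand) encodes cytochrome c1, the haem protein that reduces cytochrome c. It measured 127, 137, 73.6, 116 and 104 CPM in daily libraries 1 to 5, 220.3, 142, 164, 202 and 176 CPM in weekly libraries 1 to 5, and 123, 123, 125, 121 and 120.0 CPM in vehicle libraries 1 to 5. Weekly and vehicle values did not overlap, and the vehicle libraries were within a few CPM of each other. The change was 0.54 ± 0.15 (SE, limma adjusted p = 0.0326) for weekly and -0.17 ± 0.15 (SE, limma adjusted p = 0.636) for daily against vehicle. Without any 1 vehicle library or without weekly 1, 3 or 5, the weekly call of Cyc1 was lost (limma adjusted p up to 0.0743).

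Uqcr10, a small supernumerary subunit, had the smallest unadjusted p of complex III in daily against vehicle. Its values were 64.8, 83.4, 45.9, 60.9 and 58.8 CPM in daily libraries 1 to 5, 98.0, 87.0, 88.7, 68.3 and 102 CPM in weekly libraries 1 to 5, and 81.3, 77.4, 81.3, 68.6 and 84.5 CPM in vehicle libraries 1 to 5. Daily 2 lay inside the vehicle range and the other daily libraries below it. Daily Uqcr10 was not called against vehicle, at -0.35 ± 0.15 (SE, limma adjusted p = 0.239). Uqcrfs1, the Rieske iron-sulfur protein, was above all vehicle libraries in all weekly libraries but not called, at 0.45 ± 0.15 (SE, limma adjusted p = 0.065). It was called in daily against weekly at -0.53 ± 0.15 (SE, limma adjusted p = 0.0308), as were Uqcrc2, the other core protein, at -0.65 ± 0.15 (SE, limma adjusted p = 0.0119), Uqcr10 and Uqcr11. The small subunits Uqcrb, Uqcrh and Uqcrq were called in no comparison with all libraries weighted equally. With library weights Uqcrb was lower in daily than in weekly. Without weekly 4 all 3 were lower in daily than in weekly, and Uqcrq also without weekly 2. Over the fits without 1 library the log2 change of Uqcrb in daily against weekly ran from -0.48 to -0.07, beside -0.19 with all of them. Calls between the regimens were lost on leaving out single libraries for Uqcr10 (10 of 15 fits), Uqcr11 (6 of 15) and Uqcrfs1 (4 of 15), with limma adjusted p up to 0.0932, 0.0999 and 0.0657, and neither they nor Uqcrc2 were called with TMM scaling. The libraries were weekly 1, 3 and 5 and daily 5 for each of them, with daily 3 and 4 for Uqcr10 and Uqcr11, and vehicle 1, 2, 3 and 5 for Uqcr10.

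Cycs encodes cytochrome c, the soluble carrier between complexes III and IV, which also triggers apoptosis when released from mitochondria. It measured 149, 176, 95.3, 149 and 129.8 CPM in daily libraries 1 to 5, 203, 204, 203, 133 and 259 CPM in weekly libraries 1 to 5, and 146, 140.5, 150.4, 140.0 and 154 CPM in vehicle libraries 1 to 5. Weekly 4 was below all vehicle libraries and the other 4 weekly libraries above them. Neither change was called, at -0.09 ± 0.17 (SE, limma adjusted p = 0.834) for daily and 0.42 ± 0.17 (SE, limma adjusted p = 0.116) for weekly against vehicle. Without weekly 4 and daily 3 the weekly change was 0.56 and was called. Daily against weekly, not called with all libraries weighted equally, was called without weekly 4 and without daily 2. With library weights Cycs was higher in weekly than in vehicle and lower in daily than in weekly.

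Complex IV showed the widest range of its members in weekly against vehicle. Relative to all genes they ran from -0.47 to -0.06 with daily prednisone and from -0.29 to 1.45 with weekly prednisone, with medians of -0.24 and 0.03. The upper end was held by ubiquitous isoforms. Cox6a1 (chr5:115345642-115348981, minus strand), the isoform of subunit 6a found in most tissues, measured 7.89, 8.97, 5.58, 9.21 and 9.70 CPM in daily libraries 1 to 5, 37.0, 12.2, 31.5, 49.6 and 66.0 CPM in weekly libraries 1 to 5, and 11.4, 8.66, 11.3, 10.7 and 12.1 CPM in vehicle libraries 1 to 5. Weekly 2 was only just above the highest vehicle library, whereas the other weekly libraries were several times higher. The log2 change was 1.62 ± 0.29 (SE, limma adjusted p = 0.00124) for weekly and -0.39 ± 0.29 (SE, limma adjusted p = 0.545) for daily against vehicle, and -2.01 ± 0.29 (SE, limma adjusted p = 0.000345) for daily against weekly. Cox6a2, its counterpart of heart and skeletal muscle, measured 125, 146, 93.7, 114 and 101 CPM in daily libraries 1 to 5, 182, 159.5, 172, 74.4 and 141 CPM in weekly libraries 1 to 5, and 141, 152, 156, 144 and 159.8 CPM in vehicle libraries 1 to 5. Weekly 4 was the lowest of all libraries and weekly 1 the highest. With all libraries weighted equally no change of Cox6a2 was called, with -0.39 ± 0.19 (SE, limma adjusted p = 0.302) for daily and -0.11 ± 0.19 (SE, limma adjusted p = 0.761) for weekly against vehicle. With library weights Cox6a2 was lower in daily than in vehicle and than in weekly libraries. Without weekly 4, Cox6a2 was lower in daily than in vehicle (limma adjusted p = 0.0396) and than in weekly libraries (limma adjusted p = 0.0084).

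Cox8a (chr19:7215153-7217616, minus strand), the ubiquitous isoform of subunit 8, measured 13.2, 11, 11.5, 13.2 and 17.3 CPM in daily libraries 1 to 5, 41.2, 22.4, 43.1, 24.4 and 83.8 CPM in weekly libraries 1 to 5, and 17.9, 18.6, 18.6, 16.4 and 17.1 CPM in vehicle libraries 1 to 5. All weekly libraries were above all vehicle libraries, most of all weekly 5, and daily 5 alone of the daily libraries reached the vehicle range. Weekly rose by 1.09 ± 0.25 (SE, limma adjusted p = 0.00764) against vehicle, daily was at -0.42 ± 0.25 (SE, limma adjusted p = 0.406), and daily was lower than weekly at -1.52 ± 0.25 (SE, limma adjusted p = 0.000712). Cox8b, the isoform of muscle and brown fat, measured 87.8, 89.0, 49.9, 94.2 and 66.5 CPM in daily libraries 1 to 5, 140.2, 109.5, 103, 65.8 and 138 CPM in weekly libraries 1 to 5, and 102, 114, 111, 111 and 115 CPM in vehicle libraries 1 to 5. It had the smallest unadjusted p of complex IV in daily against vehicle, with all daily libraries below all vehicle libraries. That change was -0.55 ± 0.19 (SE, limma adjusted p = 0.119), which was not called, and the weekly change was -0.04 ± 0.19 (SE, limma adjusted p = 0.924). Without weekly 4, the daily change of Cox8b was called (limma adjusted p = 0.0071, over a range of 0.0071 to 0.259 in the 15 fits without 1 library).

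Subunit 7a had the same kinds of isoform and another pattern. Cox7a2, the ubiquitous isoform, measured 38.5, 44.1, 23.4, 38.7 and 37.5 CPM in daily libraries 1 to 5, 57.7, 57.8, 63.1, 33.8 and 70.3 CPM in weekly libraries 1 to 5, and 48.6, 45.5, 49.5, 48.1 and 49.7 CPM in vehicle libraries 1 to 5. Cox7a1, the muscle isoform, measured 51.5, 65.6, 27.4, 54.4 and 44.1 CPM in daily libraries 1 to 5, 98.4, 64.2, 73.5, 32.7 and 79.3 CPM in weekly libraries 1 to 5, and 55.6, 56.8, 59.6, 51.2 and 59.1 CPM in vehicle libraries 1 to 5. Weekly 4 was the lowest weekly library for both, and the other 4 weekly libraries were above all vehicle libraries for both. Against vehicle, daily Cox7a2 was at -0.43 ± 0.18 (SE, limma adjusted p = 0.22) and weekly Cox7a2 at 0.19 ± 0.18 (SE, limma adjusted p = 0.545). Daily Cox7a1 was at -0.27 ± 0.23 (SE, limma adjusted p = 0.608) and weekly Cox7a1 at 0.21 ± 0.23 (SE, limma adjusted p = 0.597). Daily Cox7a2 was lower than weekly Cox7a2 at -0.62 ± 0.18 (SE, limma adjusted p = 0.0369), a call lost in 9 of the 15 fits without 1 library, those without any vehicle library, weekly 3 or 5, or daily 3 or 5 (limma adjusted p up to 0.0995). Without weekly 4, daily Cox7a2 was also lower than vehicle (limma adjusted p = 0.038), as it was without weekly 4 and daily 3 (limma adjusted p = 0.0185), where weekly Cox7a2 rose by 0.36 (limma adjusted p = 0.00277). Cox7a1 was called in daily against weekly without weekly 4 (limma adjusted p = 0.00157). Cox7a2l, a related protein that joins complexes III and IV into supercomplexes, measured 50.1, 48.8, 30.1, 47.9 and 43.4 CPM in daily libraries 1 to 5, 64.1, 55.5, 58.2, 42.8 and 64.5 CPM in weekly libraries 1 to 5, and 54.9, 53.4, 51.8, 52.9 and 54.5 CPM in vehicle libraries 1 to 5. All its daily libraries were below all its vehicle libraries, with a change of -0.30 ± 0.15 (SE, limma adjusted p = 0.315), and weekly gave 0.08 ± 0.15 (SE, limma adjusted p = 0.787).

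The isoform pairs were also compared within each library, where the scaling of the whole library cancels. A trend with GC content, as seen in weekly 4, need not cancel. Transcript GC content was 62.7% for Cox6a1 and 52.8% for Cox6a2, and 58.5% for Cox8a and 55.8% for Cox8b. The part of GC content in the ratios was not tested. The log2 ratio of Cox6a1 to Cox6a2 averaged -3.74 ± 0.29 in daily, -2.01 ± 1.21 in weekly and -3.74 ± 0.19 in vehicle libraries (SD, n = 5 each). Per kilobase of exon, the level of Cox6a1 as a percentage of that of Cox6a2 was 5.76% to 9.34% in daily libraries. It was 7.42% to 64.6% in weekly libraries, with the top in weekly 4, and 5.52% to 7.88% in vehicle libraries. For Cox8a over Cox8b the log2 ratio averaged -2.49 ± 0.46 in daily, -1.48 ± 0.58 in weekly and -2.61 ± 0.11 in vehicle libraries. Every weekly ratio of Cox8a to Cox8b was above every vehicle ratio, and 4 of the 5 weekly ratios of Cox6a1 to Cox6a2 were. Cox7a2 over Cox7a1 averaged -0.38 ± 0.15 in daily, -0.25 ± 0.30 in weekly and -0.22 ± 0.09 in vehicle libraries.

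In 9 exact permutation tests of these ratios (two-sided, adjusted over the 9), weekly exceeded vehicle by 1.73 for the Cox6a pair (p = 0.0159, adjusted p = 0.0713) and by 1.13 for the Cox8 pair (p = 0.00794, the smallest that 5 against 5 allows, adjusted p = 0.0713). Daily differed from weekly by -1.73 (exact p = 0.0238, adjusted p = 0.0713) and -1.01 (exact p = 0.0317, adjusted p = 0.0713). None of the 9 passed after adjustment. A lone test at the smallest p that 5 against 5 allows could not pass an adjustment over 9, so this outcome decides nothing about the pairs. For the Cox7a pair weekly differed from vehicle by -0.03 (exact p = 0.905, adjusted p = 0.992).

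**Figure D3:**
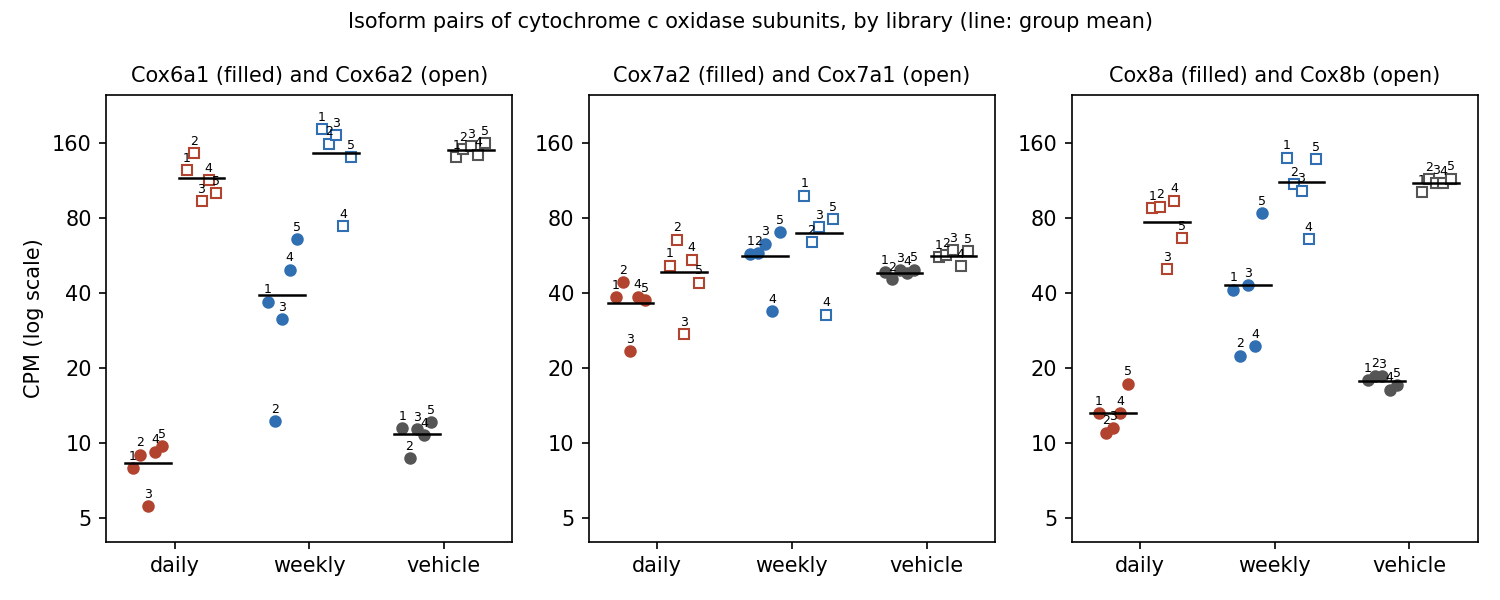
CPM of isoform pairs of cytochrome c oxidase in each library (log axis, numbers are replicates, lines are group means), with the ubiquitous isoform filled and the muscle isoform open. Weekly Cox6a1 spans 12.2 to 66.0 CPM and weekly Cox8a 22.4 to 83.8 CPM, above the vehicle libraries, while Cox7a2 and the 3 muscle isoforms overlap between weekly and vehicle.

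Among subunits with a single gene in the table, Cox4i1 (chr8:120668222-120674207, plus strand), which encodes subunit 4, measured 209, 218, 119, 200.3 and 177 CPM in daily libraries 1 to 5, 375, 234, 301, 445 and 333 CPM in weekly libraries 1 to 5, and 199, 209, 208, 197 and 196 CPM in vehicle libraries 1 to 5. Weekly and vehicle libraries did not overlap, and weekly 4 was the highest of all. It rose by 0.71 ± 0.17 (SE, limma adjusted p = 0.0118) with weekly prednisone, was at -0.16 ± 0.17 (SE, limma adjusted p = 0.693) with daily prednisone, and was lower in daily than in weekly at -0.87 ± 0.17 (SE, limma adjusted p = 0.00351). No named row of the gene table carried the symbol of its counterpart, Cox4i2. Cox6b1, on the intermembrane face, measured 94.9, 108, 57.9, 94.2 and 85.2 CPM in daily libraries 1 to 5, 166, 121, 137, 109 and 177 CPM in weekly libraries 1 to 5, and 107, 106, 112, 97.7 and 111 CPM in vehicle libraries 1 to 5. Weekly 4 lay inside the vehicle range and the other weekly libraries above it, and the weekly change of 0.39 ± 0.16 (SE, limma adjusted p = 0.14) was not called. Daily Cox6b1 was lower than weekly at -0.69 ± 0.16 (SE, limma adjusted p = 0.0121), and Cox5b, which binds zinc, at -0.57 ± 0.14 (SE, limma adjusted p = 0.0157). With TMM scaling neither call remained (limma adjusted p = 0.0632 for Cox6b1 and 0.15 for Cox5b). Cox5a, Cox6c, Cox7b and Cox7c were called in no comparison with all libraries weighted equally. With library weights all 4 were lower in daily than in weekly. Cox5a, Cox7b and Cox7c were then higher in weekly than in vehicle, and Cox6c lower in daily than in vehicle. Without weekly 4 all 4 were lower in daily than in weekly, with a log2 change of -0.59 for Cox7b and -0.57 for Cox7c, beside -0.24 and -0.20 with all libraries. Cox7b and Cox7c had their lowest values of all libraries in weekly 4, at 33.8 and 38.8 CPM. Cox4i1 overlaps Emc8 on the opposite strand by 154 bases. No source used here says whether counting used the strand, so reads of the 2 genes may be mixed.

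Complex V, the ATP synthase, had medians of -0.20 with daily and 0.05 with weekly prednisone, relative to all genes. The catalytic F1 head is built of alpha and beta subunits. Atp5a1, the alpha subunit, measured 1036, 1129, 668, 1052 and 871 CPM in daily libraries 1 to 5, 1776, 1128, 1388, 2076 and 1341 CPM in weekly libraries 1 to 5, and 941, 968, 989, 950.1 and 994 CPM in vehicle libraries 1 to 5. The highest vehicle library was below the lowest weekly library, and weekly 4 was the highest. Its weekly change was 0.64 ± 0.17 (SE, limma adjusted p = 0.0266) and its daily change -0.05 ± 0.17 (SE, limma adjusted p = 0.922). Atp5b (chr10:128083273-128090391, plus strand), the beta subunit that carries the catalytic sites, measured 994, 1081, 632, 877 and 860.2 CPM in daily libraries 1 to 5, 1754, 1231, 1508, 1724 and 1521 CPM in weekly libraries 1 to 5, and 1012, 1022, 1026, 1009 and 1068 CPM in vehicle libraries 1 to 5. Weekly again stood above all vehicle libraries and above all daily libraries. The changes were 0.58 ± 0.15 (SE, limma adjusted p = 0.0235) for weekly and -0.23 ± 0.15 (SE, limma adjusted p = 0.48) for daily against vehicle, and -0.81 ± 0.15 (SE, limma adjusted p = 0.00286) for daily against weekly. The weekly calls of both genes were lost without any 1 vehicle library, and that of Atp5b without weekly 3 as well, with limma adjusted p up to 0.0646 and 0.0605. Atp5a1 overlaps Haus1 on the opposite strand by 129 bases.

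With all libraries weighted equally, the remaining F1 subunits were not called in weekly against vehicle. With library weights Atp5d was higher in weekly than in vehicle. Atp5c1, the gamma subunit of the rotor, was at -0.07 ± 0.19 (SE, limma adjusted p = 0.871) with weekly prednisone, Atp5d, the delta subunit, at 0.43 ± 0.16 (SE, limma adjusted p = 0.102) and Atp5e, the epsilon subunit, at 0.39 ± 0.21 (SE, limma adjusted p = 0.257). In weekly 4 the same 3 genes went far apart, with 119, 215 and 311 CPM. Their vehicle ranges were 242 to 252, 95.3 to 114 and 101 to 116 CPM. Daily was lower than weekly for Atp5d at -0.71 ± 0.16 (SE, limma adjusted p = 0.0109) and for Atp5e at -0.75 ± 0.21 (SE, limma adjusted p = 0.0338), the second of these lost without weekly 5, daily 3, daily 4 or daily 5 (limma adjusted p up to 0.108). With TMM scaling neither was called (limma adjusted p = 0.0526 for Atp5d and 0.161 for Atp5e). Without weekly 4 and daily 3 both were called, at -0.46 for Atp5d and -0.36 for Atp5e. Atp5c1 was called in daily against weekly without weekly 4 (limma adjusted p = 0.0062). The difference between the changes of F1 subunits was not tested.

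The membrane ring of complex V is made of subunit c, and Atp5g1, Atp5g2 and Atp5g3 encode the same mature protein. Atp5g1 measured 172, 179.5, 104, 165 and 129.6 CPM in daily libraries 1 to 5, 261, 192, 204, 168 and 198 CPM in weekly libraries 1 to 5, and 167, 183, 175, 176 and 191 CPM in vehicle libraries 1 to 5. Atp5g2 measured 38.0, 42.5, 26.8, 46.9 and 36.0 CPM in daily libraries 1 to 5, 57.8, 50.9, 57.3, 31.3 and 59.9 CPM in weekly libraries 1 to 5, and 47.5, 47.4, 46.2, 45.7 and 51.5 CPM in vehicle libraries 1 to 5. Atp5g3 measured 149, 158, 98.8, 143 and 134 CPM in daily libraries 1 to 5, 236, 172, 194, 134 and 181 CPM in weekly libraries 1 to 5, and 151, 149.5, 162, 150.0 and 161 CPM in vehicle libraries 1 to 5. For each of them weekly 1 and weekly 3 were above all vehicle libraries, weekly 4 was inside or below their range, and daily 3 was lowest. Per kilobase of exon, Atp5g3 was the most abundant, averaging 62.6 CPM per kilobase in daily, 84.2 in weekly and 70.9 in vehicle libraries. Atp5g1 averaged 30.5, 41.7 and 36.3 in the same order, and Atp5g2 averaged 22.7, 30.7 and 28.5. With all libraries weighted equally no change of the 3 genes was called in any comparison. With library weights all 3 were higher in weekly than in vehicle and lower in daily than in weekly. Atp5g2 was then lower in daily than in vehicle too. Without weekly 4 all 3 were lower in daily than in weekly (limma adjusted p = 0.00949 for Atp5g1, 0.00404 for Atp5g2 and 0.00701 for Atp5g3), and Atp5g1 also without daily 2.

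The stalk that holds the F1 head includes Atp5h, Atp5f1, Atp5j and Atp5o. Atp5h (subunit d) rose with weekly prednisone by 0.43 ± 0.13 (SE, limma adjusted p = 0.0499), a call lost in 11 of the 15 fits without 1 library, those without any vehicle library, without weekly 1, 3 or 5 and without daily 1, 4 or 5 (limma adjusted p up to 0.11). Atp5h, Atp5f1 and Atp5o, the subunit that confers oligomycin sensitivity, were lower in daily than in weekly, at log2 changes of -0.46 to -0.57. The membrane subunits Atp5j2, at -0.55 ± 0.14 (SE, limma adjusted p = 0.0192), and Atp5k, at -0.54 ± 0.16 (SE, limma adjusted p = 0.0365), were lower too. All of these calls were lost without weekly 5 or without daily 5. Those of Atp5h, Atp5k, Atp5o and Atp5f1 were lost without weekly 3 as well, those of Atp5h, Atp5k and Atp5f1 without weekly 1, and those of Atp5k and Atp5f1 without daily 3 or any vehicle library. The call of Atp5f1 was also lost without weekly 2 or daily 1. With TMM scaling all 5 were lost. Atp5j was at -0.17 ± 0.18 (SE, limma adjusted p = 0.578) with weekly prednisone, the lowest weekly value of the members. Atp5l, the membrane subunit g, had the smallest unadjusted p of complex V in daily against vehicle. It measured 115, 108, 74.3, 113 and 93.2 CPM in daily libraries 1 to 5, 164, 124, 113, 109 and 138 CPM in weekly libraries 1 to 5, and 123, 138, 136, 123 and 132 CPM in vehicle libraries 1 to 5. All daily libraries were below all vehicle libraries, and weekly libraries lay on both sides. Its daily change was -0.39 ± 0.14 (SE, limma adjusted p = 0.146), which was not called. Of the 15 fits without 1 library, only that without weekly 4 called it (limma adjusted p = 0.0485, over a range of 0.0485 to 0.289). Atp5l was also called with library weights, with only daily and vehicle libraries in the fit, and without weekly 4 and daily 3.

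The prefix rule also took in Atp5s and Atp5sl, which are not core subunits of the synthase. Atp5s, a coupling factor, was the least abundant member at 4.54 ± 1.31 CPM in the daily, 4.79 ± 1.69 CPM in the weekly and 4.73 ± 0.764 CPM in the vehicle libraries (SD, n = 5 each). Atp5sl, named Dmac2 in GENCODE M21, acts in the assembly of complex I and averaged 15.5 ± 3.17, 19.2 ± 2.67 and 14.9 ± 2.63 CPM in the same order. Neither was called. Per kilobase of exon the most abundant member in each group was Atp5a1, with 303 CPM per kilobase in daily, 492 in weekly and 309 in vehicle libraries, and the muscle isoform Cox8b averaged 215, 309 and 307.

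**Figure D4:**
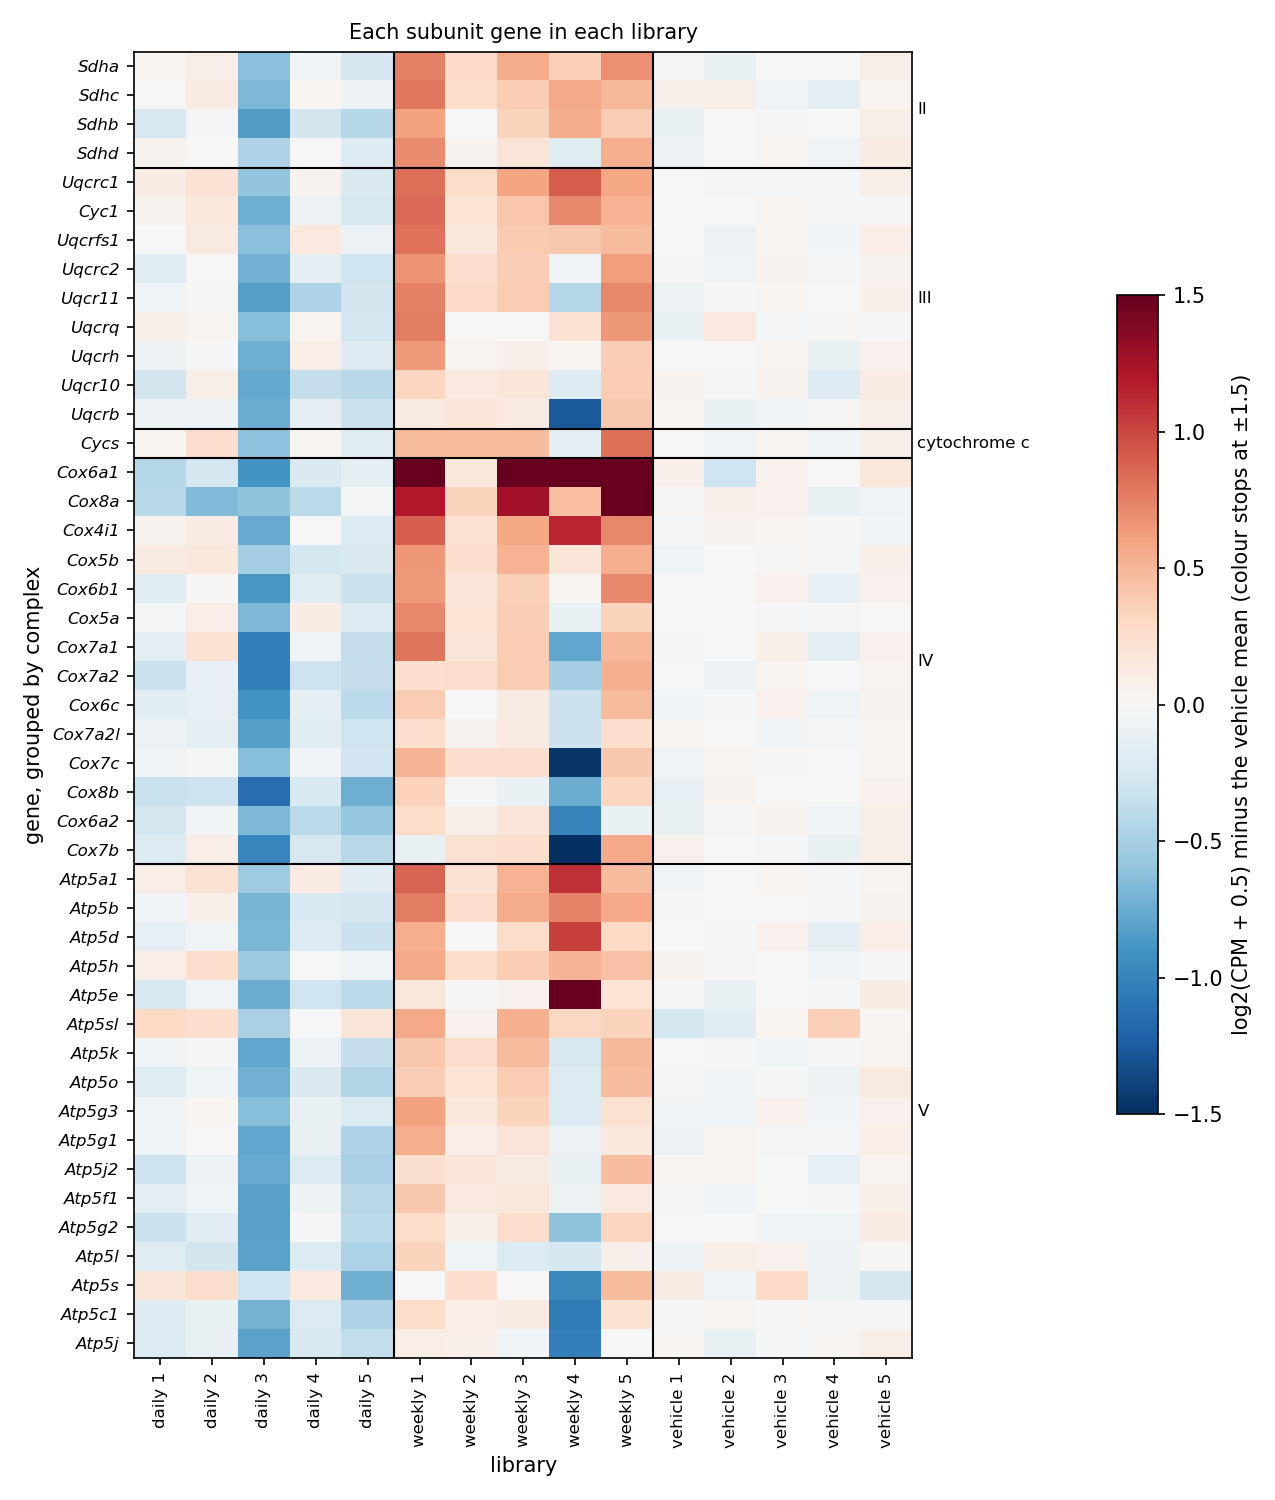
Each gene (rows, by complex) in each library (columns), as log2(CPM + 0.5) minus the vehicle mean, with colours that stop at ±1.5. Daily 3 is low for all 45 genes, and the median of all genes was low there too (-0.53). Weekly 4 ranges from 2.15 for Cox6a1 to -1.52 for Cox7b, while Cox6a1 and Cox8a are high in weekly 1, 3 and 5.

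The libraries differed in how evenly the members moved. In weekly 1, 43 of the 45 genes exceeded the highest vehicle library, as did 31 in weekly 2, 39 in weekly 3 and 41 in weekly 5. In weekly 4, 16 genes exceeded the highest vehicle library and 23 lay below the lowest. The SD of the members' deviations from the vehicle mean was 0.78 in weekly 4, against 0.11 to 0.45 in the other weekly libraries, 0.15 to 0.18 in daily and 0.06 to 0.08 in vehicle libraries. Across 43 members with a transcript, whose GC content ran from 37.0% to 63.3%, the deviation had a Spearman's rho with GC content of 0.28 in weekly 4, 0.36 in weekly 3 and 0.33 in weekly 1, and between -0.33 in daily 4 and 0.21 in weekly 5 in the other libraries, as a description. In daily 3 all 45 genes were below the lowest vehicle library. Fewer were below it in daily 1 (23), daily 2 (9), daily 4 (27) and daily 5 (41). No such counts were made over all genes, so these do not set the members apart from other genes. The median deviation of all genes from the vehicle mean was -0.53 in daily 3 and -0.03 to 0.08 in the other daily libraries. In weekly libraries it was 0.05 to 0.28. The part of GC content and of library composition in the results was not tested.

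Marker genes of other cell types differed between the weekly libraries too. The summed CPM of 5 brown fat markers was 32.7 to 70.1 in daily, 46.4 to 410.3 in weekly and 54.1 to 61.0 in vehicle libraries, and 3 of the 5 (Ucp1, Cidea and Dio2) rose with weekly prednisone. Ppargc1a, which muscle also expresses, was among the 5. Ucp1, the uncoupling protein that defines brown fat, measured 3.46, 0.951, 0.62, 1.05 and 1.66 CPM in daily libraries 1 to 5, 77.8, 9.77, 47.3, 1.44 and 223 CPM in weekly libraries 1 to 5, and 0.73, 0.585, 0.687, 0.553 and 0.113 CPM in vehicle libraries 1 to 5. Weekly 5 held the most Ucp1 and also the most Cox6a1 and Cox8a. Weekly 4, with little Ucp1, had 49.6 CPM of Cox6a1 and 24.4 CPM of Cox8a. Weekly 2 had the lowest weekly values of both genes, 12.2 and 22.4 CPM. The sum of 8 adipocyte markers was 137 to 313 CPM in the daily, 478 to 2315 CPM in the weekly and 439 to 477 CPM in the vehicle libraries, and 4 of the 8 rose with weekly prednisone (2 with TMM scaling) and 4 fell with daily prednisone. In daily against weekly, 7 of the 8 adipocyte and 2 of the 5 brown fat markers were lower.

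In weekly 4 the sums of 5 fibroblast and 11 macrophage markers were 14144 and 1878 CPM. The other weekly libraries had 1311 to 1908 and 210 to 536 CPM, daily libraries 1305 to 2238 and 296 to 603 CPM, and vehicle libraries 1173 to 1280 and 475 to 501 CPM. The sum of 7 slow fibre markers, the genes of oxidative fibres, was 172 to 697 CPM in the daily, 189 to 1722 CPM in the weekly and 970 to 1105 CPM in the vehicle libraries. With daily prednisone 4 of these 7 fell (Myh7, Myl2, Myl3 and Tnni1, of which Myh7 was not called with TMM scaling), and 0 of the 7 were called with weekly prednisone, where 1 had an unadjusted p under 0.05 by limma and Myl2 was called with TMM scaling. Weekly 2 had the lowest slow fibre sum of its group and the lowest sums of complexes II, III and V. Of the fibroblast markers 1 of 5 (Col1a1) rose with weekly prednisone (limma adjusted p = 0.0493). Weekly 4 held 7723 CPM of Col1a1, and the other 4 weekly libraries held 578 to 864 CPM. With TMM scaling Col1a1 was not called (limma adjusted p = 0.0898), and Dcn was called lower (limma adjusted p = 0.00876). Of the macrophage markers 0 of 11 were called against vehicle with either regimen (limma, 1 at an unadjusted p under 0.05 in each). With TMM scaling and without weekly 4 and daily 3, 2 were higher and 2 lower with daily prednisone, and 4 lower with weekly prednisone. The 5 endothelial markers, of which 0 were called against vehicle, summed to 98.4 to 158 CPM in the daily, 165 to 292 CPM in the weekly and 160 to 176 CPM in the vehicle libraries, and 3 of the 5 (Pecam1, Cdh5 and Kdr; Kdr alone with TMM scaling) were lower in daily than in weekly. The part of cell composition in the members' changes was not tested.

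**Figure D5:**
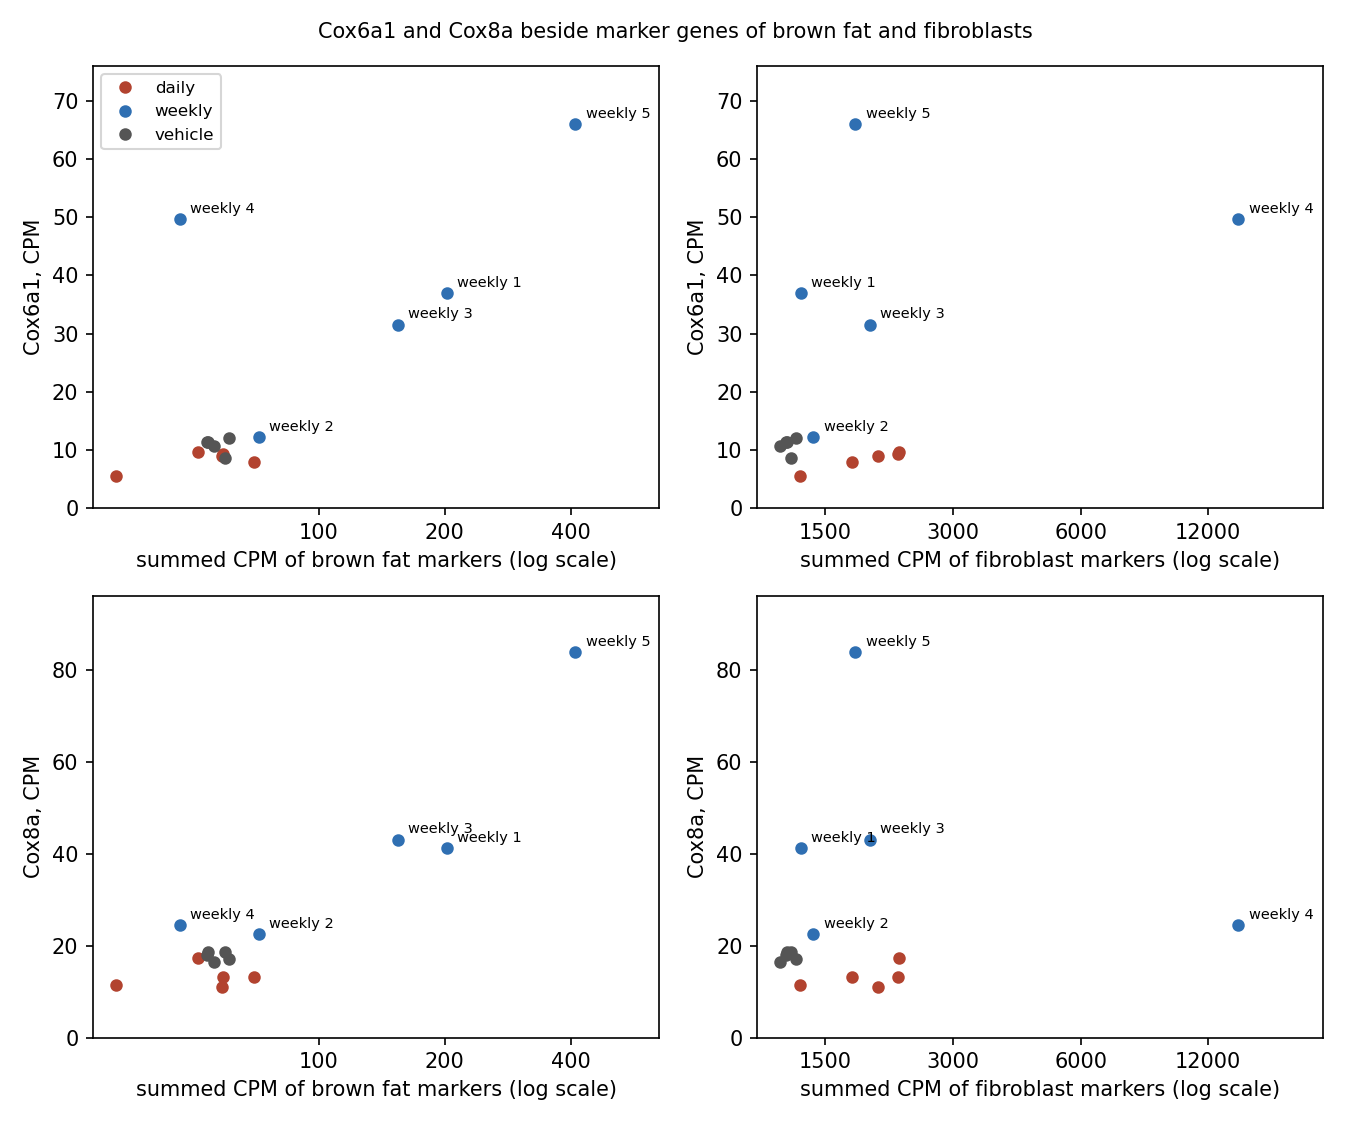
CPM of Cox6a1 (top) and Cox8a (bottom) against the summed CPM of brown fat (left) and fibroblast markers (right, both log axes) in each library. Weekly 1, 3 and 5 are high in brown fat markers and in both genes. Weekly 4 has 49.6 CPM of Cox6a1 and 24.4 CPM of Cox8a, with 46.4 CPM of brown fat markers and 14144 CPM of fibroblast markers.

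Other genes of oxidative phosphorylation were summarised for comparison. Of 37 complex I genes tested, 7 rose with weekly prednisone, 0 were called with daily prednisone (8 at an unadjusted p under 0.05) and 23 were lower in daily than in weekly. Over all genes 6.99% rose with weekly prednisone, 3.89% were called with daily prednisone and 8.24% were lower in daily than in weekly. With TMM scaling 6 complex I genes rose with weekly prednisone, 2 were lower with daily prednisone and 8 were lower in daily than in weekly. Their medians relative to all genes were -0.16 with daily and 0.09 with weekly prednisone, beside -0.19 and 0.10 for the 45 members. The mitochondrially encoded subunits of complexes III to V gave 0 calls of 6 in each comparison by limma on all libraries (1 at an unadjusted p under 0.05 in daily against vehicle, 0 in the others) and a median of -0.96 in weekly against vehicle, which was -0.03 without weekly 4 and daily 3 and with TMM scaling, where mt-Co2 was called higher in daily than in vehicle libraries. Weekly 4 held 89.5 CPM of mt-Cytb. Daily libraries had 2154 to 3137 CPM, the remaining weekly libraries 2443 to 3251 CPM and vehicle libraries 2614 to 2717 CPM.

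Assembly factors gave 5 calls of 31 in weekly against vehicle, where 6.99% of all genes rose. For complex III, 2 of 5 rose, Bcs1l, which inserts the Rieske protein, by 0.78 ± 0.23 (SE, limma adjusted p = 0.0401) and Uqcc1 by 0.46 ± 0.14 (SE, limma adjusted p = 0.0422). For complex IV and cytochrome c, 2 of 19 rose, the copper chaperone Sco1 by 0.66 ± 0.18 (SE, limma adjusted p = 0.0282) and Cox15, which makes haem A, by 0.48 ± 0.15 (SE, limma adjusted p = 0.0485). For complex V, 1 of 4 rose, Atpaf2, a chaperone of the alpha subunit, by 0.66 ± 0.18 (SE, limma adjusted p = 0.029). None of the 3 tested for complex II was called, and 0 had an unadjusted p under 0.05. With TMM scaling Cox15 (limma adjusted p = 0.0822) and Atpaf2 were not called. With daily prednisone 0 of these 31 factors were called by limma, and 4 had an unadjusted p under 0.05. With TMM scaling 1 of them, Uqcc2 of complex III, was lower.

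Of 17 transcription factors and coactivators of mitochondrial genes, 2 rose with weekly prednisone and 1 fell with daily prednisone, where 6.99% of all genes rose and 2.13% fell. With TMM scaling Ppard and Pprc1 were called higher with daily prednisone. With weekly prednisone Pprc1, a coactivator related to PGC-1, rose by 0.73 ± 0.19 (SE, limma adjusted p = 0.0215), and Ppara, a receptor that activates fatty acid oxidation, by 1.04 ± 0.26 (SE, limma adjusted p = 0.0172). Ppargc1b, which encodes PGC-1 beta, measured 14.1, 17.4, 9.91, 15.7 and 14.7 CPM in daily libraries 1 to 5, 38.2, 18.6, 25.0, 18.7 and 28.9 CPM in weekly libraries 1 to 5, and 24.6, 26.6, 25.3, 26.3 and 27.8 CPM in vehicle libraries 1 to 5. All daily libraries were below all vehicle and all weekly libraries, and it fell with daily prednisone, at -0.86 ± 0.18 (SE, limma adjusted p = 0.0078). Ppargc1a, which encodes PGC-1 alpha, was not called, at -0.24 ± 0.17 (SE, limma adjusted p = 0.495) for daily and -0.13 ± 0.17 (SE, limma adjusted p = 0.661) for weekly. Of 8 other mitochondrial proteins, 3 rose with weekly prednisone, citrate synthase (Cs) by 0.50 ± 0.15 (SE, limma adjusted p = 0.0364), the chaperonin Hspd1 by 0.65 ± 0.14 (SE, limma adjusted p = 0.00656) and prohibitin (Phb) by 0.55 ± 0.16 (SE, limma adjusted p = 0.0426), and 6 were lower in daily than in weekly. Over all genes 8.24% were lower in daily than in weekly. With TMM scaling Cs was not called, 2 of the 8 rose with weekly prednisone and 2 were lower in daily than in weekly. The shares of all genes were then 5.73% and 2.65%.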

How the data were processed

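RNA of 15 quadriceps libraries was sequenced after stranded preparation, per the labels' protocols. Per the submitters' processing notes, the authors used TopHat2 2.1.0, HTSeq, edgeR and GRCm38 (mm10). The labels call the unit RPKM, but the deposited values are CPM: all 222090 were whole multiples of 1 read, within 0.01 reads. Log2(CPM + 0.5), which understates changes of low genes, was fitted with limma 3.58.1 in R 4.3.3 (group only, 15 libraries, mean-variance trend) for genes at 1 CPM or more in at least 5 libraries, with Benjamini-Hochberg adjustment over 14059 genes and calls under 0.05. A floor of 3 reads was 0.271 to 1.08 CPM, for counting error only. Alternatives used TMM scaling, edgeR 4.0.16 and DESeq2 1.42.0 on recovered reads, other pseudocounts, no filter, library weights, a replicate block and omitted libraries. Rows without a gene name, 0.276% to 0.447% of a library, were left out. Positions are from GENCODE M21 (GRCm38), where 44 members matched and 11 overlap a gene on the opposite strand. Reads of processed copies of members were not analysed here. Every library's value is given for the 22 genes with the smallest p per complex or with isoforms, and for Ucp1 and Ppargc1b, added after their values were seen. Members, lists and rules were chosen with earlier results of these data known. The fits were tested on simulated counts with a common spread within each group. That test held no library that stood apart and no GC trend, so it does not cover these features.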

Additional observations from a re-analysis of the deposited data

Results flagged for a closer look

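Among 78 groups of 5 values (named members and isoform ratios in each group), 2 held a library whose gap to the others exceeded Dixon's 95% critical value of 0.71, and chance gives about 5% of groups. Both were in vehicle 5. Uqcrc1 measured 279 CPM in that library and 257 to 263 CPM in vehicle 1 to 4. Atp5b measured 1068 CPM in vehicle 5 and 1009 to 1026 CPM in vehicle 1 to 4. None of the groups so marked involved weekly 4 or daily 3.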

How the results depend on the processing

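For weekly against vehicle, the count of members called was 10, and 4 to 17 when 1 library was left out, 32 with library weights, 31 without weekly 4 and daily 3, and 18 with TMM scaling as well. The 4 came without any vehicle library, 5 without weekly 3, 6 without weekly 1 or weekly 5, 16 without weekly 4 and 17 without daily 3. For daily against vehicle the count was 0, and 0 to 4 without 1 library (4 without weekly 4), 13 with library weights, 4 with only these groups in the fit, 8 without weekly 4 and daily 3, and 15 with TMM scaling as well. For daily against weekly it was 24, and 13 to 42 without 1 library (13 without daily 5, 14 without weekly 5, 42 without weekly 4), 8 with TMM scaling, 11 with edgeR, 13 with DESeq2, 39 with library weights, 5 with only these groups in the fit, and 42 without weekly 4 and daily 3. The cause was not tested. Shares over all genes are not given for fits without 1 library, with library weights, with edgeR or DESeq2, with a replicate block or with only the compared groups. Counts in those settings do not set the members apart from other genes. In weekly against vehicle the share that rose was 6.99% with all libraries and 20.3% without weekly 4 and daily 3. The median relative to all genes in daily against weekly was -0.27, and between -0.37 and -0.18 without 1 library. No direction of a called result turned in any setting run. Replicate numbers are shared between groups in the labels. Same-numbered libraries deviated together little over all genes tested, with correlations of -0.029 to 0.146, the highest between daily 1 and weekly 1. This check cannot exclude a pairing or a shared batch. With the number as a replicate block, 9, 0 and 22 members were called in weekly against vehicle, daily against vehicle and daily against weekly. A gene with few reads, such as Atp5s, limits what weekly 4 can show at its depth of 2780768 reads.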

Other observations

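The prefix rule does not take in 3 known subunits of these complexes, and their values are given here. Ndufa4, once assigned to complex I and now to complex IV, averaged 93.9 ± 14.6 CPM in the daily, 130.2 ± 46.3 CPM in the weekly and 121 ± 5.62 CPM in the vehicle libraries (SD, n = 5 each). Usmg5, a membrane subunit of the ATP synthase, averaged 29.9 ± 6.03, 40.5 ± 11.8 and 40.1 ± 4.24 CPM in the same order of groups. The proteolipid gene 2010107E04Rik, also of the synthase, averaged 44.3 ± 8.79, 50.0 ± 16.4 and 56.4 ± 2.87 CPM. With all libraries none was called in any comparison by limma with Benjamini-Hochberg adjustment (1 at an unadjusted p under 0.05, in daily against vehicle), and all of them were lowest among weekly libraries in weekly 4. With TMM scaling and without weekly 4 and daily 3, all 3 were lower in daily than in vehicle libraries, and Ndufa4 and Usmg5 lower in daily than in weekly libraries.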
